A study of Mus musculus with 18 samples.

Results

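RNA sequencing compared CD115- common dendritic cell progenitors (CDPs) of mice in which *Trim33* had been deleted (KO) with those of control mice (WT). The comparison used 6 libraries, 3 WT and 3 KO, of the 18 in the series, in which multipotent progenitors (MPPs) and common lymphoid progenitors (CLPs) were profiled in the same way. Of 19710 genes listed, 12229 had a mean of at least 0.5 FPKM (fragments per kilobase of transcript, adjusted for library depth) over the 6 libraries and were tested. WT mice were *Trim33* fl/fl and carried no Cre, and KO mice were *Trim33* fl/fl Cre-ERT2. Both genotypes were C57BL/6, were 6 to 8 weeks old and had been given tamoxifen, 2 mg on each of 5 days followed by 7 days of rest. Cre removes exons 2 to 4 of *Trim33* and shifts the reading frame. Cre-ERT2 is active throughout the body, so that the deletion was not restricted to these progenitors or to blood cells. The cells were sorted from bone marrow as Lin- CD11c- FLT3+ CD117int CD115- CD127-, and each genotype had 3 biological repeats.

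CDPs are bone marrow cells committed to the dendritic cell (DC) lineage. Their CD115- fraction gives rise mainly to plasmacytoid DCs (pDCs), which secrete type I interferon, whereas CD115+ CDPs give rise mainly to conventional DCs (cDCs), which present antigen. PU.1 (*Spi1*), IRF8, E2-2 (*Tcf4*), SpiB and RUNX2 are among the transcription factors that direct these fates. TRIM33 is a chromatin-binding protein of the TIF1 family with an E3 ubiquitin ligase domain, known as a partner of SMAD proteins and of PU.1 and as a regulator of transcription elongation.

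Depth was estimated at 19.2 to 21.1 M mapped reads per library from the steps between low FPKM values. Replicates 3 of both genotypes lay apart from the other 4 libraries on the first principal component, which held 63.2% of the variance, while the second, with 22.3%, separated WT from KO. The replicate number was therefore kept as a block in the fit, so that each KO library was compared with the WT library of the same number. A gene was called where limma gave an adjusted p (Benjamini-Hochberg) of 0.05 or less and its log2 fold change, on log2(FPKM + 1), was at least 1 in size. Changes of weakly expressed genes come out too small on this scale. In sorted bulk cells, a smaller share of cells that express a gene and less of its RNA per cell cannot be told apart.

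*Trim33*, the deleted gene, had 14.30, 15.23 and 8.27 FPKM in WT 1 to 3 and 9.64, 8.28 and 4.03 FPKM in KO 1 to 3. It was lower in KO within each pair, but WT 3 lay below KO 1 and KO 2. The log2 fold change of -0.74 (SE 0.123) passed limma's test, with an adjusted p of 0.0258 (0.528 without the block), and stayed under the 2-fold minimum. The transcript has 20 exons and 8875 bases, of which exons 2 to 4 hold 397 (4.47%). Their loss alone therefore leaves a gene-level FPKM almost untouched, and this value is no measure of how complete the deletion was.

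The genes of the sorting gate were then examined. *Flt3*, the receptor that defines these cells, had 239.89, 232.53 and 146.80 FPKM in WT and 204.01, 190.35 and 171.26 FPKM in KO libraries. *Kit*, which encodes CD117, ranged from 8.08 to 28.42 FPKM over the 6 libraries. For *Flt3* and *Kit* the genotypes overlapped, with log2 fold changes of -0.10 and 0.09. *Csf1r*, which encodes CD115, was not at 0 although the gate excludes the protein, and had 57.03, 39.11 and 136.77 FPKM in WT against 11.45, 9.24 and 37.18 FPKM in KO. Each KO library was below each WT library, and *Csf1r* fell by 2.01 on the log2 scale (SE 0.109, limma adjusted p 0.000823, 0.397 without the block). *Il7r*, which encodes CD127, had 3.17 to 20.60 FPKM and a log2 fold change of -0.71 with a limma adjusted p of 0.0244 (0.722 without the block). It was lower in KO within each pair, but WT 3 lay below KO 1 and KO 2. DC progenitor genes fixed as markers (*Irf8*, *Tcf4*, *Spi1* and *Siglech*) were detected in each of the 6 libraries.

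Genes of other cell types were present as well. The summed FPKM of 22 monocyte and macrophage genes was 442, 377 and 2090 in WT 1 to 3 and 323, 293 and 420 in KO 1 to 3. The sum of 18 neutrophil granule genes was 736, 822 and 4913 in WT and 1188, 889 and 4638 in KO. Replicates 3 were thus the highest for granule genes in both genotypes, whereas for the monocyte sum WT 3 stood apart and KO 3 did not. Single monocyte genes differed in this. *F13a1* had 57.11 FPKM in KO 3 against 6.70 and 4.72 in KO 1 and KO 2, and *Ms4a6c* 63.99 against 15.48 and 12.65. *Lgals3* had 3.22 FPKM in KO 3 against 2.81 and 2.23. The sum of 14 B lineage genes was lowest in replicates 3, at 75.9 in WT and 51.1 in KO, against 171 to 311 in the others. The sum of 14 T and NK lineage genes was 95.3 to 119 in WT and 132 to 185 in KO, without overlap. *Nkg7* alone held 25.21 to 33.10 FPKM of this sum in WT and 69.11 to 72.66 FPKM in KO. *Lck*, *Lat* and *Tcf7*, abundant members that were not called, were also higher in KO within each pair, with log2 fold changes of 0.28, 0.56 and 0.85. The list as a whole did not rise, since 6 of its 11 tested members had a log2 fold change below 0 and the median was -0.31. Erythroid sums were 18.9 to 70.2 and megakaryocyte sums 2.54 to 10.4. Defining genes of mature cells were at or near 0, with at most 0.39 FPKM for *C1qb* of tissue macrophages, 0.51 for *Gata1* of erythroid cells, and 0 for *Mcpt4* of mast cells, whereas *Cd3e* of T cells reached 2.27 FPKM in WT 3. The part of these cells or transcripts in the results was not tested.

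**Figure D1:**
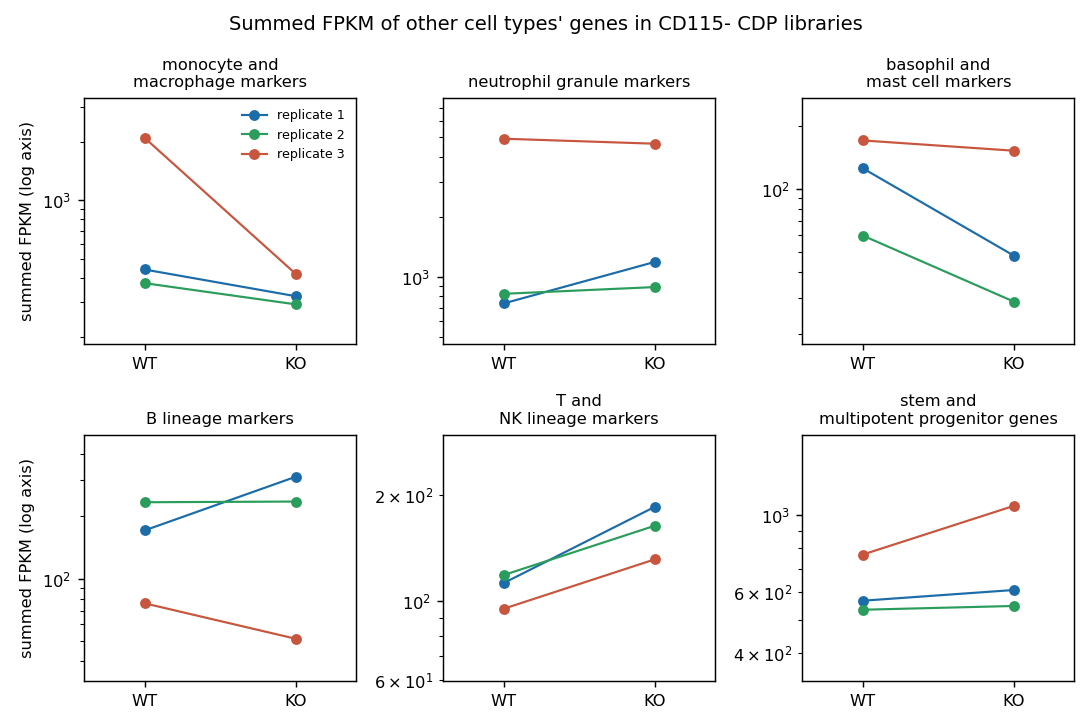
Summed FPKM of the genes of 6 other cell types or stages (log axes) in each WT and KO library, with lines joining libraries of the same replicate number. Replicates 3 lay apart for the sum of neutrophil granule genes (4913 and 4638 against 736 to 1188), and WT 3 alone for the monocyte sum (2090 against 293 to 442), though not for each monocyte gene.

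In KO CDPs 178 genes, 1.46% of those tested, fell and 46, or 0.376%, rose. The median log2 fold change of the tested genes was -0.07. The largest falls were of pDC and myeloid genes such as *Jchain*, *Cd7*, *Lgals3*, *Siglech* and *Ly6c2*, and the largest rises were of the stefin A protease inhibitors, followed by *Fcgr2b*, the inhibitory Fc receptor. Of the 178 genes that fell, 133 had each KO library below each WT library, a pattern shown by 10.6% of tested genes, and of the 46 that rose, 33 had each KO library above, a pattern of 7.68%. The other called genes overlapped between genotypes and differed within pairs.

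The number of calls depended on the pairing and on 1 pair of libraries. Without the block 8 genes (0.0654%) fell and 5 (0.0409%) rose, and these 13 were also called with it. They were *Cd7*, *Cd300c*, *Csf2rb2*, *Ctsb*, *Itgax*, *Mycl*, *Klrd1* and *Lrrc16a* among the falls and *Stfa1*, *Stfa3*, *BC100530*, *2010005H15Rik* and *Sva* among the rises. Without replicate 1 the block fit called 3 falls (*Jchain*, *Cd7* and *F13a1*) and 4 rises (*Stfa1*, *BC100530*, *Gm5483* and *Stfa2l1*). Without replicate 2 it called 254 and 73, and without replicate 3 it called 188 and 78. Each of the 224 called genes kept its direction when replicate 3 was left out, and 171 still had a log2 fold change of at least 1 in size. These genes were called on the same libraries, so that this is no independent check of their direction. Adjusted p-values below are from the block fit, with the value without the block in brackets. Counts of list members below are to be set against 1.46% lower and 0.376% higher over all tested genes.

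**Figure D2:**
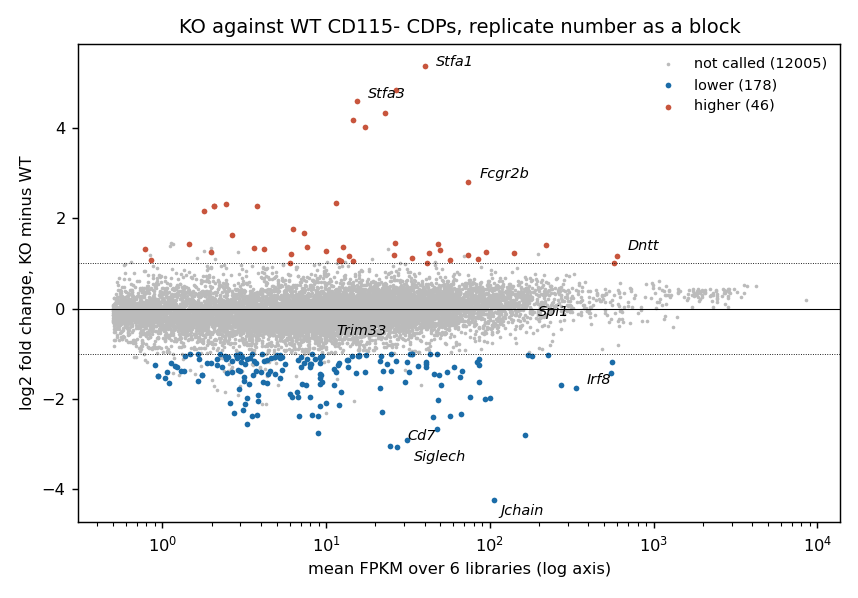
Log2 fold change, KO minus WT, of 12229 tested genes against their mean FPKM over 6 libraries (log axis), with 178 genes that fell in blue, 46 that rose in red and dotted lines at a log2 fold change of 1 and -1. *Jchain* at -4.25 and *Stfa1* at 5.38 mark the extremes, while *Spi1* at -0.29 lies among the genes not called.

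Of 31 tested transcription factors of DC development, 5 fell and 0 rose, with a list median of -0.40. *Irf8*, needed for cDC1 development while its need in pDCs is debated, had 476.72, 235.79 and 831.40 FPKM in WT and 95.02, 89.06 and 282.41 FPKM in KO. Within each pair the KO library was lower, though KO 3 lay above WT 2. *Irf8* fell by 1.75 (SE 0.178, limma adjusted p 0.0078 [0.408]). *Spib*, an ETS factor of pDCs, had 18.97, 11.88 and 12.04 FPKM in WT and 2.90, 2.66 and 0.78 FPKM in KO, with no overlap, and fell by 2.35 (SE 0.207, adjusted p 0.00528 [0.134]). *Runx2*, which supports the exit of pDCs from the marrow, had 95.16, 59.92 and 63.91 FPKM in WT against 28.15, 23.96 and 23.20 in KO. It fell by 1.48 (SE 0.114, adjusted p 0.00364 [0.111]), again with no overlap. *Mycl*, the MYC paralogue of DCs, had 9.80 to 14.28 FPKM in WT and 1.35 to 1.79 in KO, and its fall of 2.38 (SE 0.129) held in both fits (adjusted p 0.000823 [0.026]).

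The remaining called factor, *Id3*, an inhibitor of E proteins, is named here after its values were seen. It had 79.72, 70.72 and 21.11 FPKM in WT and 37.06, 26.39 and 8.63 FPKM in KO, each pair lower in KO, with a log2 fold change of -1.22 (adjusted p 0.00473 [0.574]). *Tcf4*, the E protein that specifies pDCs, had 33.71, 30.02 and 21.21 FPKM in WT and 19.35, 13.98 and 14.99 FPKM in KO. The genotypes did not overlap, but at -0.76 (SE 0.134, adjusted p 0.0283 [0.367]) it stayed under the fold minimum. *Spi1*, which encodes PU.1, had 138.61, 175.93 and 245.86 FPKM in WT and 136.54, 158.35 and 151.86 FPKM in KO. Its values overlapped, with a log2 fold change of -0.29 (SE 0.141, adjusted p 0.219 [0.701]). Without the block 1 factor of the list, *Mycl*, was called, and without replicate 1 there were 0. The study picked several genes of the DC lists on these libraries, so their counts are not independent evidence of a direction.

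The list of pDC genes held the largest share of falls among the DC lists, with 16 of 26 tested members lower and 1 higher, and a median of -1.36. The T cell antigen *Cd7*, also found on pDCs, had 56.38, 39.78 and 50.89 FPKM in WT and 5.28, 3.89 and 5.78 FPKM in KO. All KO libraries lay far below all WT libraries, and the fall of 3.06 (SE 0.107) held in both fits (limma adjusted p 0.000315 [0.0117]). *Siglech*, the sialic acid-binding receptor of mouse pDCs, had 80.34, 56.79 and 30.41 FPKM in WT and 6.63, 10.44 and 3.05 FPKM in KO. Replicate 3 was the lowest of each genotype, and *Siglech* fell by 2.90 (SE 0.2, adjusted p 0.00262 [0.162]). *Ly6c2*, a surface antigen of pDCs and monocytes, had 109.65, 63.46 and 709.22 FPKM in WT and 15.14, 10.80 and 77.33 FPKM in KO. WT 3 was several times higher than the other libraries, KO 3 lay above WT 2, and within pairs *Ly6c2* fell by 2.80 (SE 0.146, adjusted p 0.000823 [0.441]).

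*Cd300c*, an activating immunoglobulin-like receptor, had 11.13 to 19.93 FPKM in WT and 1.22 to 1.82 FPKM in KO and fell by 2.74 (SE 0.214, limma adjusted p 0.00364 [0.0355]). *Upb1*, a pyrimidine-catabolic enzyme, had 2.38 to 12.09 FPKM in WT and at most 0.13 FPKM in KO and fell by 2.55 (SE 0.333, adjusted p 0.0155 [0.22]). The other members that fell, named after their values were seen, were *Pld4* and *Rnase6* (-2.37 and -2.29), *Havcr1*, *Ptprf*, *Tlr9*, *Atp1b1*, *Pacsin1*, *Smim5*, *Lair1*, *Bst2* and *Ly6d* (-1.53 to -1.02). Among the list's most abundant members not called was *Unc93b1*, the chaperone of endosomal toll-like receptors, with 182.19 to 363.96 FPKM in WT and 124.44 to 160.18 FPKM in KO. The genotypes did not overlap, and the log2 fold change of -0.87 (limma adjusted p 0.0213 [0.367]) stayed under the fold minimum. The member that rose was *Dntt*, terminal deoxynucleotidyl transferase of lymphoid progenitors, with 536.22, 484.24 and 148.37 FPKM in WT and 986.17, 924.69 and 488.20 FPKM in KO (1.17, adjusted p 0.0199 [0.512]). KO was the higher library of each pair for *Dntt*, and KO 3 lay between WT 2 and WT 1. Without the block 2 members fell (*Cd7* and *Cd300c*), and without replicate 1 there was 1, *Cd7*.

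*Jchain*, which encodes the joining chain of polymeric immunoglobulins and is also transcribed in pDCs, fell the most of the tested genes. It had 53.36, 52.59 and 499.88 FPKM in WT and 3.09, 1.21 and 22.62 FPKM in KO. Replicate 3 was the highest in both genotypes, and each KO library lay below each WT library. Its log2 fold change was -4.25 (SE 0.175, limma adjusted p 0.000517 [0.352]).

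**Figure D3:**
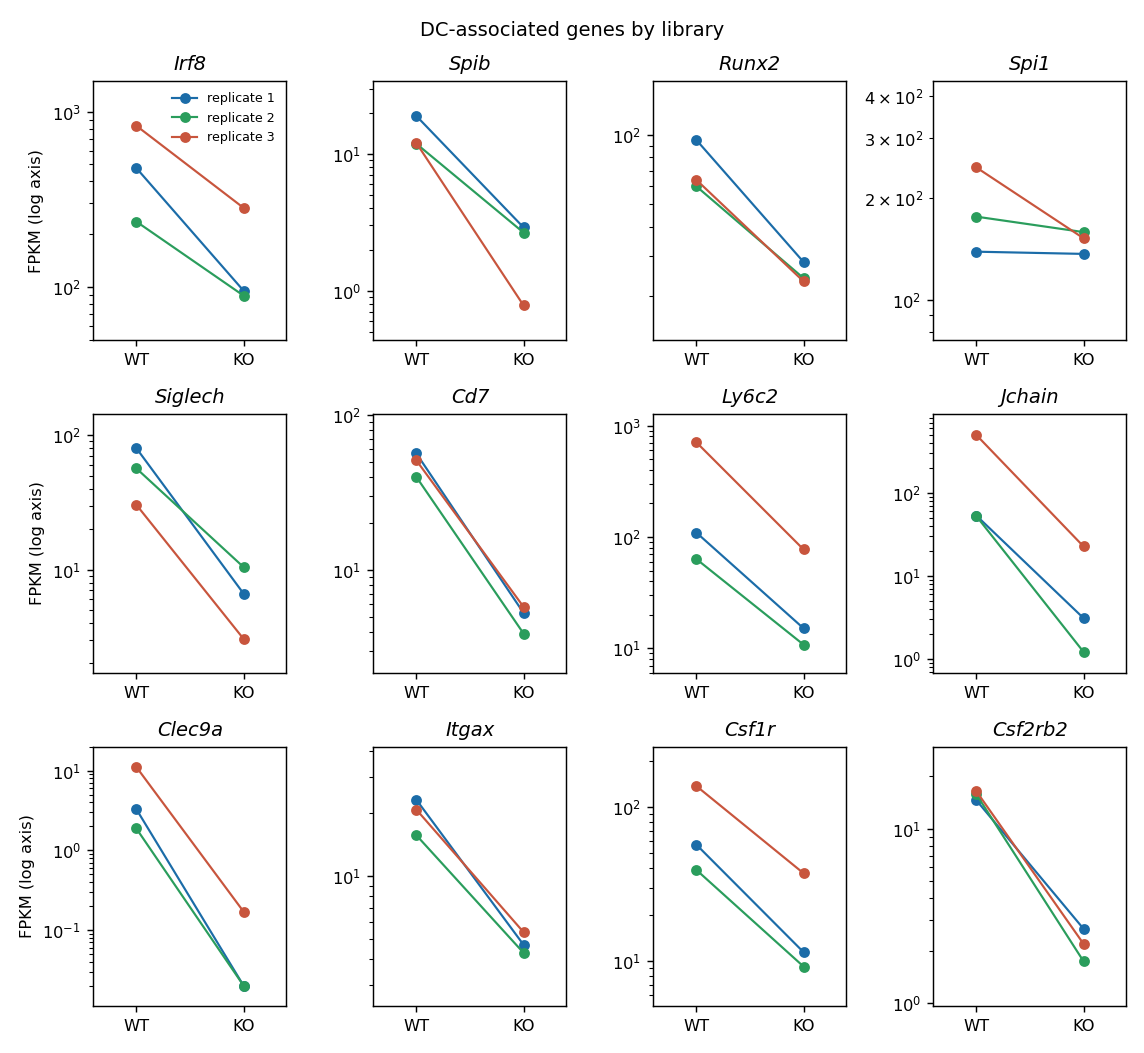
FPKM (log axes) of 12 DC-associated genes in each WT and KO library, with lines joining libraries of the same replicate number. Lines for *Cd7*, *Csf2rb2* and *Itgax* lie close together, while those of *Irf8*, *Ly6c2*, *Jchain* and *Csf1r* are offset by replicate 3 yet slope down alike, and those of *Spi1* are nearly flat in replicates 1 and 2.

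The promoters of the DC and stefin genes were read from RefSeq annotation of GRCm38.p6 as the 250 bases before the first transcript start listed for the gene, and 4 motifs were searched on both strands. These were AGGAAGT, the ETS core bound by PU.1 and SpiB, a repeat of GAAA and GAAA spaced by 2 bases, bound by interferon regulatory factors (IRF repeat), GGAA and GAAA spaced by 2 bases, the composite of an ETS and an IRF site, and CAGGTG, an E-box. The IRF repeat was in 11 of 134 promoters of genes that fell, or 8.21%, against 2.81% of 9616 tested genes with a promoter, and the ETS core in 10.4% against 7.90%. The composite was in 0.746% against 1.94%, and the E-box in 20.1% against 14.6%. Among 38 promoters of genes that rose, these shares were 5.26%, 7.89%, 5.26% and 28.9%. The last share, 11 promoters, includes those of *Stfa1*, *Stfa2* and *Stfa2l1*, which are near copies of each other and not independent. The shares were not tested, and a match to letters is not a bound site. Shown are 2 pDC promoters that hold a match, chosen after values were seen, *Siglech* on the plus strand at chr7:55767934-55768183 with an E-box and *Ly6c2* on the minus strand at chr15:75111972-75112221 with an ETS core. Capitals mark the match, which on the strand shown is the reverse complement for *Siglech*. As another annotated start lies further upstream, the last 30 bases for *Siglech*, which hold its match, and the last 95 for *Ly6c2*, which do not, lie inside the RefSeq gene.
Siglech: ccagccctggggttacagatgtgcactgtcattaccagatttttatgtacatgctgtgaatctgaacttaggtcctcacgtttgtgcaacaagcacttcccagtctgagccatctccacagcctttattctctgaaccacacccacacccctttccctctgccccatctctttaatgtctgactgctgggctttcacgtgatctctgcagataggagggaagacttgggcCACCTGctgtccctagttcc
Ly6c2: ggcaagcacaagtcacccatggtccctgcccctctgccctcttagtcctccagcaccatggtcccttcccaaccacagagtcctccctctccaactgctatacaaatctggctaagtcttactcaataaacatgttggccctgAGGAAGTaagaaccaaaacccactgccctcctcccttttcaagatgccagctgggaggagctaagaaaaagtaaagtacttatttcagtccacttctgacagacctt

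Of cDC1 genes 3 of 11 tested members fell and 0 rose, with a median of -0.64. *Clec9a*, the cDC1 receptor for dead cells, had 3.29, 1.88 and 11.14 FPKM in WT and 0.02, 0.02 and 0.17 FPKM in KO. It was near absent from the KO libraries, and fell by 2.32 (SE 0.342, limma adjusted p 0.021 [0.253]). *Itgax*, which encodes the integrin CD11c that the gate excludes, had 23.29, 15.72 and 20.88 FPKM in WT and 4.67, 4.27 and 5.37 FPKM in KO. The libraries of a genotype lay close together, and its fall of 1.85 (SE 0.128) held in both fits (adjusted p 0.00262 [0.0499]). *Tlr12*, the profilin receptor, fell by 1.21 (SE 0.235, adjusted p 0.0344 [0.505]) from levels of 1.03 to 7.21 FPKM in WT, and its log2 fold change was -0.89 without replicate 3.

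Of cDC2 genes 3 of 12 fell and 0 rose, with a median of -0.69. *Ifi30*, the lysosomal thiol reductase GILT, had 41.36, 29.37 and 168.00 FPKM in WT and 10.14, 8.08 and 13.84 FPKM in KO. WT 3 stood out, no values overlapped, and the fall was 2.39 (SE 0.329, limma adjusted p 0.0179 [0.338]). *Clec10a*, a galactose-binding lectin, fell by 1.44 (SE 0.172, adjusted p 0.0125 [0.409]) and *Sirpa*, the receptor for CD47, by 1.05 (SE 0.135, adjusted p 0.0149 [0.624]), each with WT and KO ranges that overlapped through KO 3. Without replicate 3 the log2 fold change of *Sirpa* was -0.89, under the fold minimum.

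*Ifi30* also belongs to the MHC class II list, where it was the 1 member of 14 (7.14%) that fell, with 0 that rose and a median of -0.45. *Cd74*, the invariant chain, had 121.41, 134.19 and 258.44 FPKM in WT and 127.28, 190.10 and 35.62 FPKM in KO. *H2-Ab1*, a class II beta chain, had 50.91, 75.40 and 77.43 FPKM in WT and 90.84, 135.67 and 41.46 FPKM in KO. KO was higher than WT in replicates 1 and 2 and lower in replicate 3 for both genes, and limma's adjusted p was 0.423 for *Cd74* and 0.631 for *H2-Ab1*.

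Of 28 cytokine receptor genes 4 fell and 0 rose, with a median of -0.31. The paired beta subunits *Csf2rb2* and *Csf2rb* fell by 2.38 (SE 0.143, limma adjusted p 0.00139 [0.0177]) and 1.29 (SE 0.139, adjusted p 0.00915 [0.428]). *Csf2rb2* had 14.54, 15.72 and 16.38 FPKM in WT and 2.67, 1.74 and 2.19 FPKM in KO, among the most even values of the genes that fell. Reads of these near-identical genes may be shared between them. *Il10ra*, the IL-10 receptor chain, fell by 1.03 (SE 0.164, adjusted p 0.0244 [0.21]), and *Csf1r* is given above. Without the block *Csf2rb2* was the 1 receptor called, and without replicate 1 there were 0.

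Pattern recognition receptors fell in part. Of 19 toll-like receptor genes and adaptors 3 fell and 0 rose, with a median of -0.38. *Tlr9*, the DNA sensor of pDCs, had 5.10, 5.14 and 6.86 FPKM in WT and 2.05, 1.62 and 0.76 FPKM in KO, with no overlap (-1.46, SE 0.236, limma adjusted p 0.0248 [0.19]). *Ly86*, partner of the receptor CD180, fell by 1.11 (SE 0.156, adjusted p 0.0189 [0.405]), or by 0.98 without replicate 3. Of 17 C-type lectin and SIGLEC genes 5 fell and 0 rose, with a median of -0.83. Besides *Siglech*, *Clec9a* and *Clec10a* they were *Cd22* and, named after its values were seen, *Siglecg* (-1.01). *Cd22*, an inhibitory SIGLEC of B cells and pDCs, had 6.27, 3.16 and 10.73 FPKM in WT and 0.45, 0.30 and 0.34 FPKM in KO, and fell by 2.38 (SE 0.27, adjusted p 0.011 [0.138]).

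Fc receptors moved in both directions, with 3 of 9 lower and 1 higher and a median of 0.16. *Fcgr2b*, which inhibits signalling in cells that bind immunoglobulin G, had 14.03, 10.85 and 34.65 FPKM in WT and 124.83, 119.60 and 140.19 FPKM in KO. The KO libraries lay within a narrow range above each WT library, and *Fcgr2b* rose by 2.80 (SE 0.249, limma adjusted p 0.00528 [0.111]). *Fcgrt*, the neonatal Fc receptor that recycles immunoglobulin, had 5.86, 2.95 and 24.50 FPKM in WT and 0.88, 0.95 and 2.2 FPKM in KO (-1.96, SE 0.344, adjusted p 0.0283 [0.41]). *Fcer1g*, the shared gamma chain of activating receptors, and *Fcer1a*, the high-affinity IgE receptor chain, fell by 1.02 and 1.0 (limma adjusted p 0.0283 [0.462] and 0.0264 [0.512]), each with ranges that overlapped. Without replicate 3 *Fcer1g* had a log2 fold change of -0.81, which no longer passed.

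Of 11 chemokine receptor genes 2 fell and 0 rose, with a median of -0.64. *Cx3cr1*, the fractalkine receptor of monocytes and DC progenitors, had 6.54, 3.11 and 36.38 FPKM in WT and 1.64, 1.5 and 7.07 FPKM in KO and fell by 1.48 (SE 0.269, limma adjusted p 0.0299 [0.609]). *Ccr2*, which draws monocytes from the marrow, had 4.64, 2.67 and 69.44 FPKM in WT and 1.72, 1.03 and 12.51 FPKM in KO (-1.43, SE 0.293, adjusted p 0.038 [0.743]). Replicate 3 held the highest value of each genotype for both genes, and without it *Ccr2* had -0.95 and was not called. Of 15 leukocyte integrins 2 fell and 0 rose, *Itgax* and *Itgb7*, with a median of -0.23. *Itgb7*, the beta chain of gut-homing integrins, had 109.36, 73.85 and 218.96 FPKM in WT against 34.20, 37.67 and 45.04 FPKM in KO, with no overlap, and fell by 1.62 (SE 0.228, adjusted p 0.0189 [0.284]).

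Calls among the lysosomal proteases were falls, and calls among the stefin A inhibitors of such proteases were rises. Of 19 cathepsin and lysosomal genes 3 fell and 0 rose, with a median of -0.35. *Ctsh*, an aminopeptidase cathepsin, had 68.85, 46.56 and 133.77 FPKM in WT and 8.10, 10.25 and 16.29 FPKM in KO and fell by 2.66 (SE 0.187, limma adjusted p 0.00267 [0.142]). *Ctsb*, the abundant cathepsin B, had 132.80, 108.35 and 121.80 FPKM in WT and 48.75, 50.79 and 51.18 FPKM in KO. Its KO values were nearly equal, and its fall of 1.25 (SE 0.102) held in both fits (adjusted p 0.00456 [0.0401]). *Cd68*, a lysosomal membrane protein of macrophages, fell by 1.0 (SE 0.119, adjusted p 0.0123 [0.579]) and had -0.95 without replicate 3.

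Stefins A are cytosolic inhibitors of cysteine proteases, and the mouse genes lie together on chromosome 16 between positions 36119946 and 36455392 of GRCm38.p6. Of 10 genes listed 9 were tested, 8 rose and 0 fell, and the median was 4.18. *Stfa3*, *Stfa2* and *2010005H15Rik*, with WT means of 0.273, 0.47 and 0.127 FPKM, passed the filter of 0.5 FPKM only through the KO libraries. A member that low in WT could be tested only if it was higher in KO. The count of rises and the median are therefore partly set by the filter. *Stfa1* had 0.50, 0.69 and 1.37 FPKM in WT and 67.78, 49.78 and 122.13 FPKM in KO and rose by 5.38 (SE 0.17, limma adjusted p 0.000315 [0.0117]). *Stfa3* had 0.28, 0.41 and 0.13 FPKM in WT and 30.16, 19.91 and 42.39 FPKM in KO and rose by 4.59 (SE 0.251, adjusted p 0.000823 [0.0117]). The WT libraries hardly expressed these genes and each KO library did, with KO 3 the highest.

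*BC100530* rose by 4.84 (SE 0.176, limma adjusted p 0.000315 [0.026]), *Gm5483* by 4.33 (SE 0.211, adjusted p 0.000816 [0.119]), *Stfa2* by 4.18 (SE 0.345, adjusted p 0.00456 [0.0597]), *Stfa2l1* by 4.03 (SE 0.198, adjusted p 0.000816 [0.174]) and *2010005H15Rik* by 2.32 (SE 0.19, adjusted p 0.00456 [0.0401]). *BC117090*, the last of the 8, and *Gm5416*, with an adjusted p of 0.0552, were listed at 0 in the WT libraries. The sum over the 10 genes was 1.38, 3.50 and 11.2 FPKM in WT and 223, 164 and 447 FPKM in KO. Reads of 50 bases can match several of these near-identical genes, so that how the sum divides among single members is uncertain. Without the block 4 members were called, and without replicate 1 also 4. Of 3 stefin B and cystatin genes tested, elsewhere in the genome, 0 rose and 0 fell. *Cst3*, the secreted cystatin C, had 391.74 to 1077.36 FPKM in WT and 260.52 to 390.37 FPKM in KO, and *Cst7* 60.45 to 81.96 and 85.45 to 100.89, with log2 fold changes of -0.90 and 0.40. Neither gene overlapped between genotypes. Both passed limma's test (adjusted p 0.0454 [0.48] and 0.0457 [0.465]) but stayed under the fold minimum.

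The promoters of 4 stefin genes and of *Fcgr2b* are shown because these genes were among those that rose the most in CDPs and had a promoter in the table. The stefin genes *BC100530* and *Gm5483*, which rose by 4.84 and 4.33, are named only. *Stfa1* lies on the plus strand with its promoter at chr16:36276898-36277147, *Stfa2l1* on the plus strand at chr16:36156561-36156810, *Stfa2* on the minus strand at chr16:36408364-36408613, *Stfa3* on the minus strand at chr16:36455393-36455642 and *Fcgr2b* on the minus strand at chr1:170976072-170976321. The 4 stefin promoters were 82.0% to 90.8% identical over 250 bases, the most alike being *Stfa2* and *Stfa2l1*. Capitals mark the reverse complement of the E-box in *Stfa1*, *Stfa2* and *Stfa2l1* and that of the ETS and IRF composite in *Stfa3* and *Fcgr2b*, the 2 promoters of risen genes that held it.
Stfa1: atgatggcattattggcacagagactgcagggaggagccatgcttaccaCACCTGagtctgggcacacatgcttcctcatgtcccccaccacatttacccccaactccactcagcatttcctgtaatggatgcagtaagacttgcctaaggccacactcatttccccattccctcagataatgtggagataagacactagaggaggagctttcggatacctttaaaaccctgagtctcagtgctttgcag
Stfa2: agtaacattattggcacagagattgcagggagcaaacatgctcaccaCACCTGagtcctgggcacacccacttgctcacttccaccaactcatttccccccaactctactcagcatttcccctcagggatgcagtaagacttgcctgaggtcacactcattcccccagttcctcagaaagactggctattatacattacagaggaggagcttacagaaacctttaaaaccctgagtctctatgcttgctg
Stfa2l1: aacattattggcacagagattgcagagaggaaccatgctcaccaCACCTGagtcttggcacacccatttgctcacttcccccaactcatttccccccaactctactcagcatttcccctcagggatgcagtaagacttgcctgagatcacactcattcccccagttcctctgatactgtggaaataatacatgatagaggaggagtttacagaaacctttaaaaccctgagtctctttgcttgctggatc
Stfa3: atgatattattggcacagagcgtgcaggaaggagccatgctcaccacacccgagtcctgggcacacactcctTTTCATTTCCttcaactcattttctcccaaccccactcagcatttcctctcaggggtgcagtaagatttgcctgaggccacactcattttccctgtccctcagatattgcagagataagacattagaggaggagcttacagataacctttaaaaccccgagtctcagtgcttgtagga
Fcgr2b: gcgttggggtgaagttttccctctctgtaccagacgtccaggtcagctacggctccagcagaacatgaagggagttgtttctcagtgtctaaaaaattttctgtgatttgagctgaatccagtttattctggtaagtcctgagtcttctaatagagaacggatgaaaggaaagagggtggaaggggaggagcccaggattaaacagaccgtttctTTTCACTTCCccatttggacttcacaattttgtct

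Other genes rose from low levels. *Sva*, a secretory gene, was listed at 0, 0 and 0.08 FPKM in WT and had 5.58, 3.95 and 2.76 FPKM in KO (limma adjusted p 0.00545 [0.0401]). *Camk2b*, a calmodulin-dependent kinase known from neurons, had 0.54, 0.71 and 0.45 FPKM in WT and 10.88, 6.32 and 3.84 FPKM in KO and rose by 2.26 (SE 0.24, adjusted p 0.00886 [0.119]). Both had each KO library above each WT library. *Fbp1*, the gluconeogenic fructose bisphosphatase, had 1.35, 1.35 and 2.76 FPKM in WT and 6.78, 5.55 and 51.68 FPKM in KO, where KO 3 stood far above the rest (2.34, SE 0.431, adjusted p 0.0309 [0.408]). *Mir7050* was listed at 0 in WT and at 4.23, 6.08 and 2.07 FPKM in KO. It is 1 of 13 called microRNA and small nucleolar RNA genes, 11 lower and 2 higher of 266 tested, whose short length leaves few reads of 50 bases behind an FPKM.

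*Nkg7*, a membrane protein of cytotoxic granules, had 25.21, 33.10 and 27.90 FPKM in WT and 72.66, 69.11 and 72.00 FPKM in KO and rose by 1.29 (SE 0.115, limma adjusted p 0.00528 [0.0597]). Its libraries agreed closely within each genotype, and they did so in replicate 3 too. Among the remaining rises, chosen after their values were seen, *Mif*, a cytokine, had 382.31, 368.45 and 374.90 FPKM in WT and 642.08, 787.17 and 867.92 FPKM in KO (1.02, adjusted p 0.00943 [0.0937]). *Atp1b3*, a sodium pump subunit, had 108.21 to 127.85 FPKM in WT and 251.83 to 456.81 in KO (1.41, adjusted p 0.02 [0.173]). The MAPK phosphatase *Dusp6* had 25.14 to 29.99 FPKM in WT and 53.59 to 57.56 in KO (1.01, adjusted p 0.0071 [0.0937]). *Lmna*, which encodes lamins A and C, had 54.51, 114.83 and 2.07 FPKM in WT and 173.11, 218.32 and 5.87 FPKM in KO. Replicate 3 was far below the others in both genotypes for *Lmna*, and within pairs it rose by 1.24 (SE 0.15, adjusted p 0.0127 [0.871]).

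**Figure D4:**
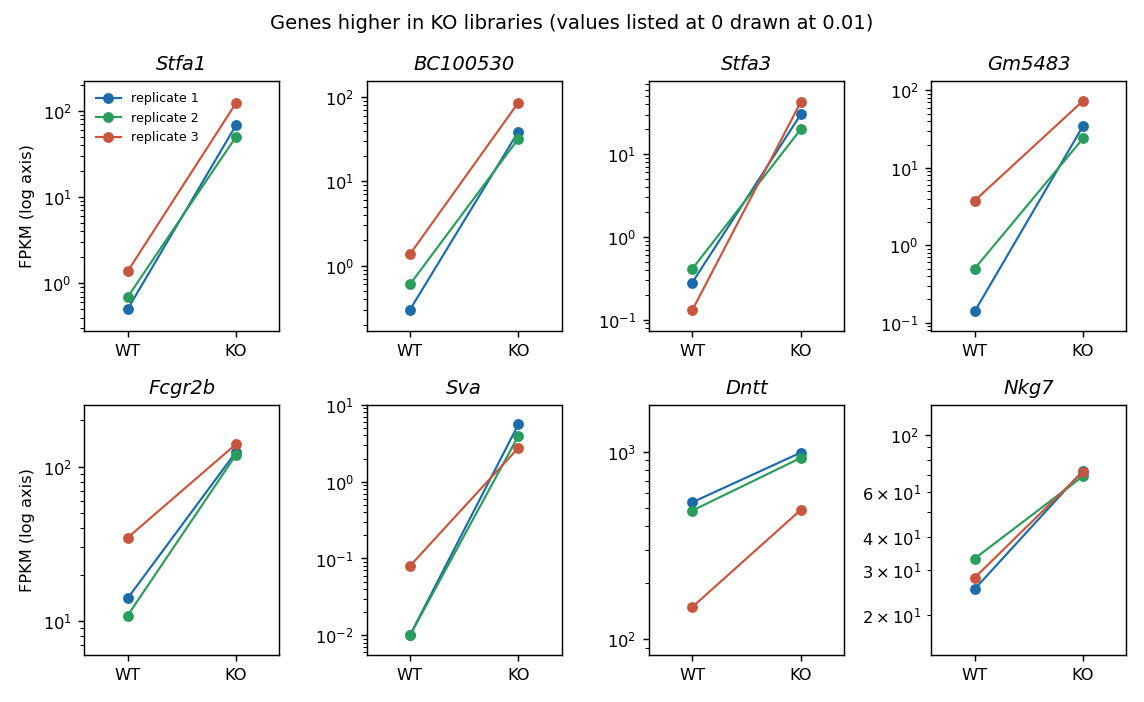
FPKM (log axes) of 8 genes that rose in KO CDPs, in each library, with lines joining libraries of the same replicate number and values listed at 0 drawn at 0.01. The stefin genes rise from at most 3.77 FPKM in WT to at least 19.91 FPKM in KO, and the 3 KO values of *Nkg7* and of *Fcgr2b* nearly coincide.

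Monocyte and macrophage genes were the other list with many falls, 8 of 17 tested lower and 0 higher, with a median of -1.0. *Lgals3*, the lectin galectin-3, had 18.49, 12.54 and 108.89 FPKM in WT and 2.81, 2.23 and 3.22 FPKM in KO and fell by 3.04 (SE 0.481, limma adjusted p 0.0237 [0.311]). *F13a1*, coagulation factor XIII of monocytes, had 45.87, 26.21 and 261.79 FPKM in WT and 6.70, 4.72 and 57.11 FPKM in KO (-2.34, SE 0.118, adjusted p 0.000816 [0.528]). *Ms4a6c*, a membrane protein of myeloid cells, had 68.77, 49.29 and 246.77 FPKM in WT and 15.48, 12.65 and 63.99 FPKM in KO (-1.96, SE 0.094, adjusted p 0.000816 [0.465]). WT 3 was the highest library for each of these 3 genes, and KO 3 the highest of the KO libraries.

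The other members that fell were *Csf1r*, *Cx3cr1*, *Ccr2*, *Cd68* and, named after its values were seen, *Irf5* (-1.15). *Lyz2*, lysozyme M, had 45.98, 50.08 and 848.79 FPKM in WT and 84.29, 75.82 and 140.63 FPKM in KO, and thus differed in opposite directions between pair 3 and the other 2 pairs. Its log2 fold change was -0.38 (limma adjusted p 0.715) in the 6 libraries and 0.72 without replicate 3 (adjusted p 0.041). The list had 5 falls without replicate 3, 1 without replicate 1 and 0 without the block. Its summed level in WT 3 was given above, and its part in these falls was not tested.

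Of 18 neutrophil granule genes 0 fell and 0 rose, with a median of 0.36. *Mpo*, myeloperoxidase, had 352.35, 310.58 and 1686.23 FPKM in WT and 331.57, 247.57 and 2117.18 FPKM in KO, and *S100a9* 27.68, 72.33 and 625.27 against 158.73, 118.63 and 254.86. Replicates 3 were the highest for both genes. Of 9 basophil and mast cell genes 2 fell and 0 rose, with a median of -0.27. *Prss34*, a basophil protease, had 69.36, 27.52 and 93.37 FPKM in WT and 15.45, 8.15 and 60.57 FPKM in KO, with overlap (-1.45, SE 0.262, limma adjusted p 0.0297 [0.561]), and *Fcer1a* is given above. Of 23 stem and multipotent progenitor genes 0 fell and 0 rose, with a median of 0.22.

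Lymphoid and erythroid lists had few calls, in both directions. Of 13 B lineage genes 1 fell (*Cd22*) and 1 rose, with a median of 0.27. *Vpreb2*, a surrogate light chain gene of pro-B cells that is nearly identical to its paralogue, had 9, 16.41 and 0.26 FPKM in WT and 28.82, 31.66 and 0.99 FPKM in KO (1.05, SE 0.189, limma adjusted p 0.0297 [0.858]). Replicate 3 was near 0 in both genotypes. Of 11 T and NK lineage genes 1 rose (*Nkg7*) and 1 fell, with a median of -0.31. *Cd3g*, a CD3 chain, had 1.38, 0.83 and 5.39 FPKM in WT and at most 0.39 FPKM in KO (-1.37, SE 0.284, adjusted p 0.0388 [0.408]), and -0.96 without replicate 3. Of 6 erythroid genes tested 1 fell and 1 rose. The globin *Hba-a1* had 2.96, 4.15 and 13.72 FPKM in WT and 0.37, 0.18 and 1.64 FPKM in KO, and *Hbb-bt* 1.76, 2.82 and 3.63 against 5.52, 11.09 and 19.46 (-2.05 and 1.68). Each globin has a near-identical copy between which reads can be divided, so the value of a single copy is uncertain. Of 4 megakaryocyte genes 0 were called.

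Genes tied to TRIM33 itself or to cell survival were largely not called. Of 26 TIF1 and TGF-beta SMAD pathway genes 0 fell and 0 rose, with a median of -0.02. *Trim24* and *Trim28*, the TIF1 relatives of *Trim33*, had log2 fold changes of -0.18 (limma adjusted p 0.308) and 0.11 (adjusted p 0.47). Of 19 transcription elongation genes 0 fell and 0 rose, with a median of -0.01, and *Cdk9*, the kinase of P-TEFb, had 51.86 to 65.07 FPKM in WT and 51.80 to 63.09 FPKM in KO (0.01, SE 0.0889). Of 15 BCL2 family genes 0 fell and 1 rose, with a median of -0.04. *Bok*, a BAX-like effector, had 0.58, 1.30 and 0.42 FPKM in WT and 3.91, 3.62 and 2.05 FPKM in KO, with no overlap (1.25, SE 0.175, adjusted p 0.0189 [0.261]). *Bcl2l11*, which encodes the death activator BIM, had 59.49, 93.09 and 8.22 FPKM in WT and 86.97, 79.82 and 35.18 FPKM in KO. It was higher in KO in pairs 1 and 3 and lower in pair 2, with a log2 fold change of 0.76 (SE 0.371, adjusted p 0.217 [0.825]).

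Of 27 interferon-stimulated genes 1 (3.70%) fell and 0 rose, with a median of -0.14. It was *Bst2*, the tetherin that also marks pDCs, with 275.14, 207.58 and 253.42 FPKM in WT and 106.82, 125.31 and 119.12 FPKM in KO (-1.05, SE 0.131, limma adjusted p 0.0138 [0.107]). Of 40 cell cycle and replication genes 1 (2.5%) fell and 0 rose, against 1.46% lower over all tested genes, with a median of -0.16. The gene was *Mki67*, a marker of cycling cells, with 67.27, 50.13 and 74.06 FPKM in WT and 35.94, 21.33 and 37.41 FPKM in KO (-1.02, SE 0.102, adjusted p 0.0078 [0.332]). Neither gene overlapped between genotypes, and *Mki67* had -0.93 without replicate 2. Of 24 immediate early genes, 14 heat shock chaperones and 16 p53 targets, 0 fell and 0 rose, with medians of 0.04, 0.19 and 0.13.

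**Figure D5:**
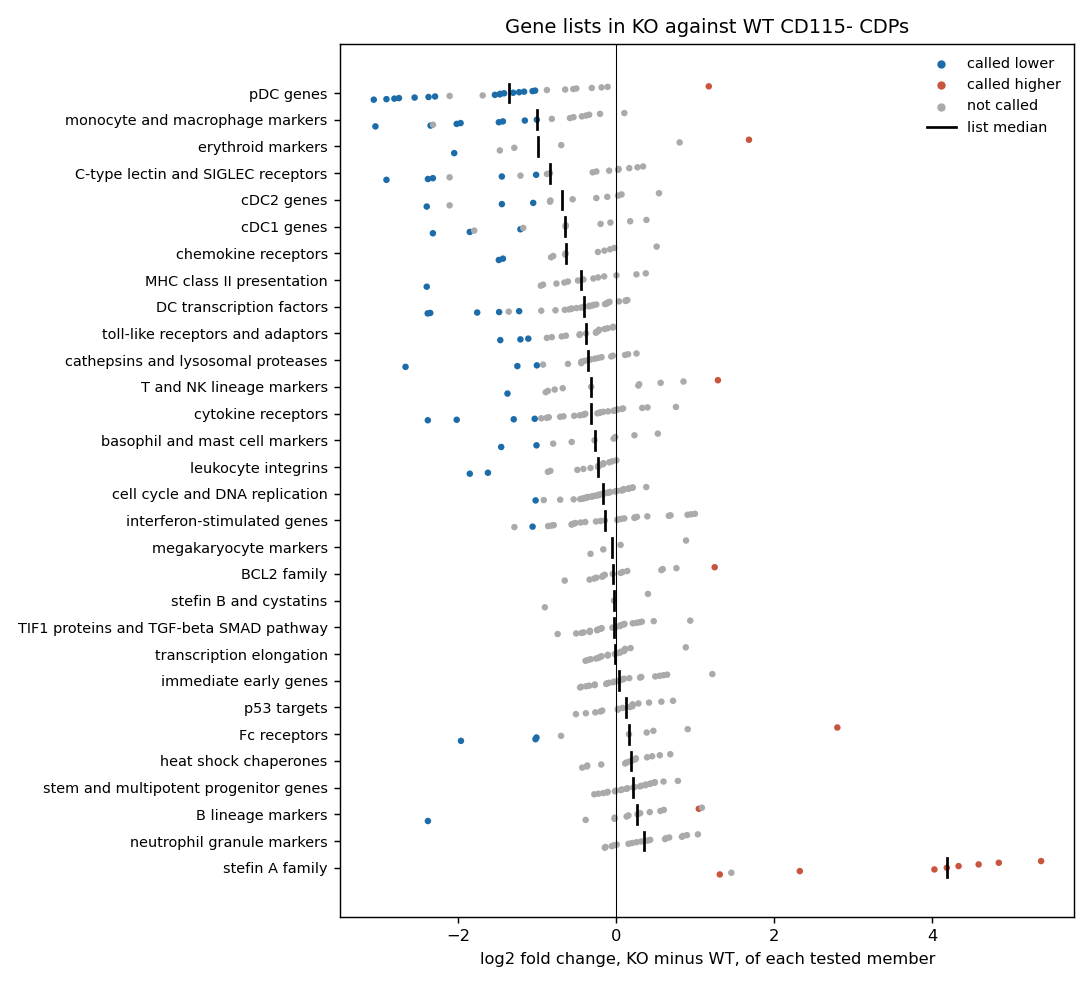
Log2 fold change, KO minus WT, of each tested member of 30 gene lists, ordered by the list median (black bars), with members that fell in blue, that rose in red and that were not called in grey. The pDC list has its median at -1.36, the monocyte list at -1.0 and the stefin A list, alone at the far right, at 4.18.

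Whether the KO effect in CDPs differed from that in the other populations was tested as the difference of differences over 18 libraries, each taken within its own population, for 12978 genes. The effect differed from that in CLPs for 107 genes (0.824%), of which 12 were more negative and 95 less negative or more positive in CDPs, and 37 were among the called genes of CDPs. It differed from that in MPPs for 566 genes (4.36%), 201 more negative and 365 less negative or more positive, with 87 among the called genes. pDC genes fell more in CDPs than in MPPs and less than in CLPs in several cases. Their levels in WT cells were not compared between populations. A gene with little RNA in the WT cells of a population can fall only little on this scale. For *Cd7* the log2 fold change was -3.06 in CDPs, -4.98 in CLPs and -0.56 in MPPs, and limma's adjusted p of the difference was 0.00111 against CLPs and 0.00098 against MPPs. For *Spib* it was -2.35, -5.20 and -0.41 (adjusted p of the difference 0.00259 and 0.0167), and for *Itgax* -1.85, -3.12 and 0.24 (adjusted p 0.0322 and 0.00305). *Siglech*, at -2.90, -4.11 and -0.80, differed from MPPs (adjusted p 0.00557) but not past the threshold from CLPs (adjusted p 0.0825).

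*Irf8* had log2 fold changes of -1.75 in CDPs, -2.72 in CLPs and -1.55 in MPPs, and limma's adjusted p of the difference was 0.25 against CLPs and 0.734 against MPPs. For *Fcgr2b* they were 2.80, 2.86 and 3.18 (adjusted p 0.935 and 0.423). A difference in effect was not detected for these genes, with SEs of the difference of 0.363 for *Irf8* and 0.3 for *Fcgr2b*. *Stfa3* rose by 4.59 in CDPs, against 1.51 in CLPs (adjusted p of the difference 0.0121) and 5.15 in MPPs (adjusted p 0.449). *Runx2*, at -1.48 in CDPs, had -1.74 in CLPs (adjusted p 0.529) and 0.05 in MPPs (adjusted p 0.0065). *Jchain* fell more in CDPs than in either population, with -4.25 in CDPs against -0.20 in CLPs and -2.02 in MPPs (adjusted p 0.000413 and 0.00885). The endothelial cadherin *Cdh5* and the lipid transfer protein *Pltp* had -0.82 and -0.74 in CDPs, where their WT means were 0.937 and 0.83 FPKM, against -3.96 and -3.95 in CLPs (adjusted p 0.000155 for each difference).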

How the data were processed

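Poly(A) RNA of sorted CD115- CDPs was sequenced on the BGISEQ-500 with single-end reads of 50 bases. The authors deposited FPKM per gene and library, computed with RSEM, and read counts were not used here. The submitters' processing notes name HISAT2 2.0.4, Bowtie2 2.2.5, RSEM 1.2.12 and mm10. The study's own test takes counts and was not run. Whole reads could not be recovered from FPKM, because RSEM divides reads between transcripts, and the depth estimate comes from the common step of low values.

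Libraries were grouped by their labels, with no column left unassigned (0). Genes whose mean reached 0.5 FPKM were fitted on log2(FPKM + 1) with lmFit and eBayes (trend) of limma 3.58.1 in R 4.3.3, with genotype and replicate number as terms and Benjamini-Hochberg adjustment over 12229 genes. The numbers come from the labels. Deviations from the genotype means correlated at 0.44, 0.67 and 0.79 for WT and KO libraries of the same number, but also at 0.66 for WT 2 with KO 1 and 0.38 for WT 1 with KO 2, so that numbers 1 and 2 are not told apart and the block mainly sets replicate 3 apart. Nothing in the labels says that a number marks a shared day or litter. The 3 libraries of a genotype are described as biological repeats.

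Named genes are *Trim33*, the 12 largest falls and 12 largest rises with 1 sign in each pair, up to 4 called members of each list, up to 3 abundant members not called, the 5 largest differences from each other population, and fixed genes of the study. Members, lists and tests were chosen with earlier results of these data known. BC094916, entered in the stefin list in error, was removed. Entrez identifiers of 12211 tested genes (99.85%) matched RefSeq of GRCm38.p6, whose table held promoters of 9616. A few withheld genes are not reported here. The 2 duplicated symbols were kept apart by identifier. Alternatives were no block, a pseudocount of 0.1, no filter, a mean of at least 5 FPKM, TPM, median ratio and quantile scaling, no trend, an adjusted p of at most 0.001, no fold minimum and leaving out each replicate. A term for replicate 3 in place of the block was chosen after seeing the data. The fits were also run on simulated data, in which libraries of the same number shared a mean by construction. These data therefore cannot show whether the numbers mark real pairs. Summaries used Python 3.11.15, pandas 2.3.3 and numpy 2.4.6.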

Additional observations from a re-analysis of the deposited data

Results flagged for a closer look

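The KO effect of 60 gene and population pairs differed between CD115- CDPs and another population by limma's test of the difference itself (adjusted p at most 0.05). Each value below is the log2 fold change in CDPs minus that in the other population. These genes were drawn from the named genes, which were chosen partly for their change in CDPs, and hypotheses about them were not tested.

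Against CLPs, 3 values were negative. They were -4.05 for *Jchain* (SE 0.325, limma adjusted p 0.000413), -3.09 for *Snord91a* (SE 0.299, adjusted p 0.000739) and -1.54 for *F13a1* (SE 0.232, adjusted p 0.0122). *Snord91a*, a small nucleolar RNA gene, had 0 to 8.72 FPKM in CDPs and a log2 fold change of -0.33 there against 2.76 in CLPs. *F13a1* had -2.34 in CDPs against -0.80 in CLPs. Genes with negative fold changes in both populations, less negative in CDPs, had 0.807 for *Cd68*, 1.27 for *Itgax*, 1.34 for *Ctsb*, 1.39 for *Lrrc16a*, 1.48 for *Smim5*, 1.58 for *Bst2*, 1.62 for *Atp1b1* and 1.65 for *Ly6c2*. They further had 1.78 for *Cd300c*, 1.92 for *Cd7*, 2.04 for *Ctsh*, 2.06 for *Ptprf*, 2.15 for *Havcr1*, 2.27 for *Pacsin1*, 2.27 for *Clec10a* and 2.85 for *Spib*. *Stfa3* rose more in CDPs, by 3.08 (SE 0.462, adjusted p 0.0121), and *Dusp6* had 0.556. The values for *Cdh5* and *Pltp* were 3.14 and 3.21 (adjusted p 0.000155 each).

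Against MPPs, genes of the pDC list and other named genes had more negative values in CDPs, with their levels in WT MPPs not compared. The values were -2.67 for *Cd300c*, -2.51 for *Cd7*, -2.23 for *Jchain*, -2.17 for *Upb1*, -2.10 for *Siglech*, -2.10 for *Cd22*, -2.08 for *Itgax*, -1.96 for *Ly6c2* and -1.96 for *Lrrc16a*. They were -1.94 for *Csf2rb2*, -1.94 for *Spib*, -1.90 for *Clec9a*, -1.65 for *Atp1b1*, -1.60 for *Klrd1*, -1.57 for *Mycl*, -1.54 for *Id3*, -1.53 for *Runx2* and -1.39 for *Havcr1*. They were also -1.36 for *Ctsh*, -1.33 for *Tlr9*, -1.33 for *Itgb7*, -1.32 for *Clec10a*, -1.29 for *Ptprf*, -1.17 for *Pacsin1*, -0.934 for *Ctsb*, -0.864 for *Bst2* and -0.688 for *Unc93b1*, with adjusted p-values from limma between 0.00098 and 0.0418 over these genes. Short RNA genes gave -2.21 for *Snord91a* and -2.82 for *Mir7024*. Of genes that rose in CDPs, the values were 1.03 for *Atp1b3*, 1.42 for *Nkg7* and 1.47 for *Dusp6*.

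Globin genes differed from MPPs by 4.82 for *Hbb-bs* (SE 0.82, limma adjusted p 0.0156), 4.15 for *Hba-a1* (SE 0.536, adjusted p 0.00588) and 3.62 for *Hba-a2* (SE 0.608, adjusted p 0.0148). In CDPs *Hbb-bs* had at most 11.25 FPKM and a log2 fold change of -1.29, against -6.10 in MPPs. *Hbb-bt*, the globin that rose in CDPs (1.68), had -0.46 in CLPs and -0.39 in MPPs, and it differed by 2.15 from CLPs (SE 0.297, adjusted p 0.00714) and by 2.07 from MPPs (adjusted p 0.00845). *Hba-a2* was listed at 0 in WT 1 and in the 3 KO libraries of CDPs.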

How the results depend on the processing

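The 178 falls and 46 rises became 8 and 5 without the replicate block, 326 and 86 with a pseudocount of 0.1, 114 falls at a mean of at least 5 FPKM, 319 falls on the TPM scale, 108 falls after quantile normalization, 10 and 5 at an adjusted p of at most 0.001, and 680 and 462 with no fold minimum. Without the filter, limma called 0 of 18470 genes, although 4023 had an unadjusted p under 0.05 (3747 of 12229 with it). Over the fits that left out a replicate, falls ranged from 3 to 254 and rises from 4 to 73 and 78, the low end without replicate 1, which leaves 2 pairs as each of these fits does. The remaining alternatives stayed within 1.5 times. Genes whose effect differed from CLPs numbered 58 without the block, 69 with the pseudocount of 0.1, 68 at a mean of at least 5 FPKM, 19 at 0.001, and 60 to 127 when a replicate was left out. For MPPs they numbered 122 without the block, 324 with that pseudocount, 344 on the TPM scale, 3 at 0.001 and 215 to 295 when a replicate was left out. The causes were not tested.

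Falls made up 79.5% of calls, 87.6% on the TPM scale, 74.4% with median ratios and 65.1% after quantile normalization, and TPM moved the median of all tested genes from -0.07 to -0.19. Without the block 64 of 100 named genes lost their call. Their signs could not turn, because dropping the block leaves each log2 fold change as it was. In other fits signs turned for genes that were not called. On the TPM scale *Kit* had -0.029, *Trim28* -0.017 and *Cdk9* -0.11. After quantile normalization *Cdk9* had -0.00998, and with median ratios *Mpo* had 0.018. When a replicate was left out the range was -1.38 to 0.28 for *Cd74*, -0.023 to 0.043 for *Cdk9*, -0.031 to 0.83 for *H2-Ab1*, -0.16 to 0.56 for *Kit*, -0.998 to 0.72 for *Lyz2*, -0.21 to 0.12 for *Mpo* and -0.29 to 1.59 for *S100a9*.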
